A study of Mus musculus with 6 samples.

Results

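The JAK and STAT genes encode the kinases and transcription factors through which cytokine receptors without a kinase of their own act on the nucleus. Of the 9 genes named for this family, 8 were measured by a probe that names no other gene: the kinase genes Jak1, Jak2 and Tyk2 and the transcription factor genes Stat2, Stat3, Stat5a, Stat5b and Stat6. Jak3 was listed only under a probe that also names its neighbour Insl3, so no value is given for it. These 8 were read out of 19938 genes with a single-gene probe. Each had 1 such probe, so the choice of the brightest probe of a gene did not bear on them.

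The cells were mouse pre-B cells of the FvB/N strain, transformed with BCR-ABL1, the fusion kinase of Philadelphia chromosome-positive acute lymphoblastic leukaemia. All of them were SPRY1/2 fl/fl, that is, homozygous for floxed alleles of Spry1 and Spry2, which encode inhibitors of receptor tyrosine kinase signalling to RAS and ERK. Control cells (3 arrays) carried the vector PMIP-ERT2, and Cre-ERT2 cells (3 arrays) carried PMIP-CRE-ERT2, whose recombinase is switched on by tamoxifen. Both groups were puromycin resistant and had received 0.5 µM 4-hydroxytamoxifen for 2 days, so the drug is common to them. No array of cells with the recombinase but without floxed alleles was analysed here, so loss of the Sprouty genes and activity of the recombinase cannot be told apart. Separate cultures or clones are not named for the replicates in the labels, so the p-values rest on a spread between samples that may be technical.

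In this pathway a cytokine brings receptor chains together, the JAKs bound to them phosphorylate each other and the receptor, and STAT proteins dock, are phosphorylated, pair and enter the nucleus. Jak1 and Tyk2 serve interferon and interleukin receptors, Jak2 serves the receptors of the interleukin 3 and erythropoietin type, and Jak3 pairs with the common gamma chain used by the interleukin 7 receptor of pre-B cells. BCR-ABL1 itself phosphorylates STAT5 in leukaemic cells, without the need for a cytokine. Arrays measure RNA only, and phosphorylation of the proteins was not measured.

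Promoter sequences are shown for the member with the lowest p-value, Stat2, and for 3 inhibitor genes of the pathway, because STAT proteins are known to bind short elements of this kind. The inhibitor genes shown are ones whose windows hold a match. The sequences are RefSeq's, build GRCm38.p6, with bases counted from the gene's start, and they read 5′ to 3′ on the strand of the gene. The elements searched were TTCNNNGAA, the palindromic element of STAT dimers, and the pair of half-sites GAAA and GAAA with any 2 bases between them, on either strand, which is the core of the interferon-stimulated response element bound by the complex of STAT2 and IRF9. Capitals mark the matches. Stat2 (chr10:128270248-128270497, plus strand, bases -250 to -1) held 1 match to the paired GAAA half-sites, on the other strand, at bases -222 to -213, and Socs3 (chr11:117969367-117969616, minus strand, bases -250 to -1) held 1 match to TTCNNNGAA at bases -154 to -146. Cish (chr9:107296655-107296682, plus strand, bases -4 to 24) held 2 matches to TTCNNNGAA, and Socs1 (chr16:10785599-10785626, minus strand, bases -90 to -63) held 2 overlapping matches to the paired half-sites.
Stat2: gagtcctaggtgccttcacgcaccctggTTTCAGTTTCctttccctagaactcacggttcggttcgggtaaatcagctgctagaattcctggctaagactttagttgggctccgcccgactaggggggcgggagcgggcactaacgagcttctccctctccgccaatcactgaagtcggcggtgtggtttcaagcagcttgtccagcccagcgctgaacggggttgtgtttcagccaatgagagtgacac
Socs3: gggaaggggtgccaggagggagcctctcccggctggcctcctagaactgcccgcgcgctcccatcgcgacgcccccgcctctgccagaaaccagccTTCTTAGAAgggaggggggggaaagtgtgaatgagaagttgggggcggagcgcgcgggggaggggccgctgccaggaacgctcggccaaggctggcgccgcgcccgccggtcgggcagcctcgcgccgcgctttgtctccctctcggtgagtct
Cish: agttTTCCTGGAAagTTCTTGGAAatct
Socs1: cttgccgGAAAGAGAAACCGAAAgcggg
The table gave 11 windows of 300 bases for the 9 family genes, of which 0 held TTCNNNGAA and 1, that of Stat2, held the paired half-sites. Over all 32851 windows of that length the shares were 8.3% and 3.44%, and 0.454% held both. Among receptor genes that rose, the windows of Il2ra, Il21r and Il4ra held 0 matches to either element, and that of Csf2rb2 held 1 match to TTCNNNGAA, at bases -15 to -7. A match is a description of the letters, and binding was not measured.

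Medians of the 6 arrays lay between 7.73 and 7.81 on the deposited log2 scale, and arrays correlated at 0.992 to 0.997 over all probes. Control 1 stood somewhat apart, with an array weight of 0.322 against 0.662 to 2.36 for the others, and it was the highest control for 66.6% of all genes. Both floxed genes had less RNA where the recombinase was present. Spry2 fell to 0.478-fold and Spry1 to 0.557-fold of control (limma adjusted p = 0.00162 and 0.00462), and the part of each gene that its probe covers was not analysed here. Of all genes 159 rose and 223 fell at an adjusted p under 0.05, and the higher share of these calls, 41.6% as deposited, became 31.2% once each array was centred on its median and 52.5% when quantile normalization was repeated. Markers of the labelled cell type were bright and close between groups as a list. The 15 measured pre-B markers had array means of 12.1 to 12.18 in control and 12.03 to 12.07 in Cre-ERT2 cells. Of these markers 6 were higher and 9 lower. Rag2, a subunit of the antigen receptor recombinase, alone passed (-0.68, limma adjusted p = 0.00162), or 6.67% against 1.92% of all genes. Cd22 (-0.37) and Rag1 (-0.31) had the next lowest p-values and did not pass (limma adjusted p = 0.092 and 0.138). Mast cell markers were higher in the Cre-ERT2 arrays. Averaged over the 22 measured markers, controls 1, 2 and 3 read 7.76, 7.35 and 7.53, whereas the Cre-ERT2 arrays in the same order read 8.73, 7.87 and 8.24. A total of 20 were higher, as were 36.9% of all genes, and 3 passed the test (13.6%, against 1.92% of all genes). Those 3 were Mcpt2 (5.48-fold), Tpsab1 (1.77-fold) and Tpsb2 (1.59-fold; limma adjusted p = 0.0369, 0.018 and 0.00295). Fcer1a, the IgE receptor chain that defines the lineage together with Kit, did not pass, with values of 7.98 to 9.24 in control and 9.34 to 11.22 in Cre-ERT2 cells. Arrays give no true zero, so absence of such cells cannot be read from them. The 19 myeloid markers had means of 7.28 to 7.4 and 7.45 to 7.54, the 13 T and NK cell markers 7.25 to 7.34 and 7.27 to 7.3, and the 7 erythroid and megakaryocyte markers 6.9 to 7.11 and 6.89 to 7.02, in control and Cre-ERT2 arrays. Of the myeloid markers 13 were higher and 6 lower. Tyrobp alone passed (1.62-fold, limma adjusted p = 0.0329), and Lyz2 did not (2.09-fold, limma adjusted p = 0.0651). In RNA of a bulk culture, more cells of a type and more RNA per cell cannot be told apart.

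The measured JAK and STAT genes differed by at most 1.18-fold between Cre-ERT2 and control cells. None of the 8 measured members passed the threshold on the deposited values (limma, 0 of 8 at an adjusted p under 0.05, 1 of 8 at an unadjusted p under 0.05, where 1.92% and 18.1% of all genes did). Differences ran from -0.01 for Jak2 to 0.24 for Stat2 on the log2 scale, with a median of 0.08. Over all genes the median was -0.03. Of the 8 members 7 were higher, as were 36.9% of all genes. In 3 of the 8, Stat2, Stat6 and Jak1, every Cre-ERT2 array exceeded every control array, and in 0 was the order the other way. Across all genes the groups did not overlap for 24.8%, that is, 6.59% higher and 18.2% lower. Signals of different probes cannot be ranked against each other, so levels are compared only between arrays for 1 gene at a time.

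**Figure D1:**
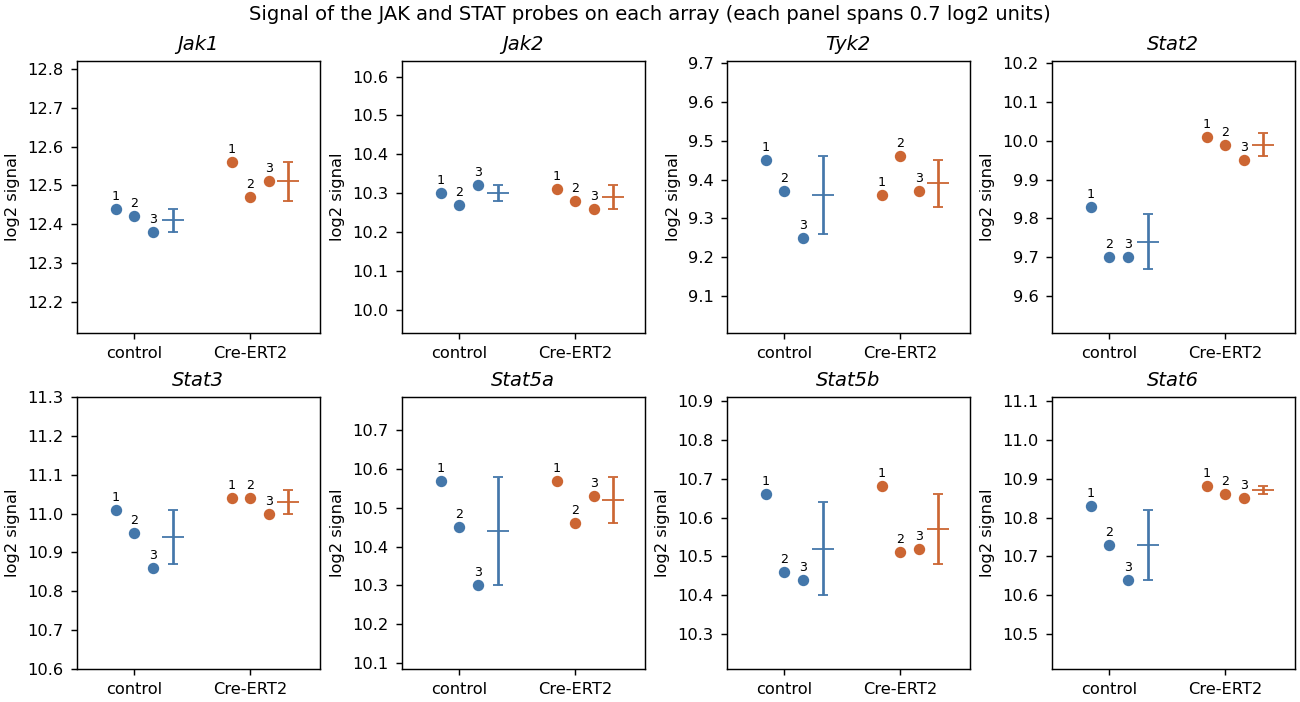
Log2 signal of the 8 measured JAK and STAT genes on each array, with control arrays in blue and Cre-ERT2 arrays in orange, numbered by replicate. Bars give the mean and SD of 3 arrays, and all panels span the same 0.7 log2 units. The groups are separate for Stat2, Stat6 and Jak1 and overlap for the other 5 genes.

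Stat2 had the largest difference of the family. STAT2 is the interferon-specific member, which joins IRF9 and a further STAT protein in the complex that switches on interferon-stimulated genes. Its probe read 9.83, 9.70 and 9.70 in the controls and 10.01, 9.99 and 9.95 in Cre-ERT2 cells, each in the order of the replicate numbers, as below. The 3 Cre-ERT2 arrays lay within 0.06 of each other and all above the highest control, by 0.13. The means were 9.74 ± 0.07 and 9.99 ± 0.03 (SD, n = 3 each), a difference of 0.24 ± 0.06 (SE) or 1.18-fold, with a 95% interval of 1.08 to 1.3-fold. It missed the threshold (limma adjusted p = 0.067). The adjusted p was under 0.05 by limma in 5 of 17 alternatives: 0.0297 when dim genes were dropped, 0.0326 on median-centred arrays, 0.0251 after quantile normalization was repeated, 0.0414 with an intensity trend in the variance and 0.0116 with array weights. It stayed short of the threshold when any 1 array was left out, with differences of 0.22 to 0.29 and adjusted p from 0.05 without control 1 to 0.215 without Cre-ERT2 3. When the mean of the mast cell markers entered the fit as a covariate, the difference was 0.18 ± 0.10 (SE, limma adjusted p = 0.571). The marker means did not overlap between groups (7.35 to 7.76 in control and 7.87 to 8.73 in Cre-ERT2 arrays), so this covariate overlaps with the group. Here and below, a difference or call lost with it cannot be assigned to mast cells or to the group. The sign was the same under all 17 alternatives.

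**Figure D2:**
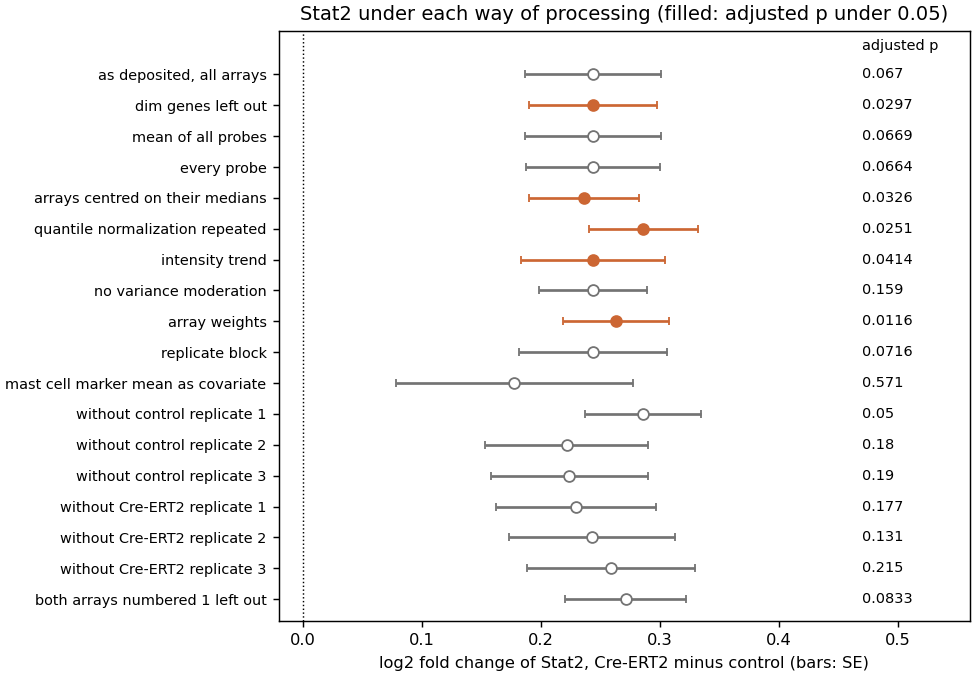
Log2 difference of Stat2 between Cre-ERT2 and control arrays, with its SE, on the deposited values and under each of 17 alternatives. Filled points mark an adjusted p under 0.05, and every point lies above 0, between 0.18 and 0.29.

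The genes most like Stat2 across the 6 arrays, by the root mean square distance of log2 values centred on their own means, were Hmbox1 (0.0193), Fut8 (0.0216) and Repin1 (0.0244), out of 11439 genes compared. Hmbox1 encodes a homeobox protein, Fut8 the fucosyltransferase of the N-glycan core and Repin1 a zinc finger protein. Their differences were 0.23, 0.23 and 0.22 on the log2 scale, and none passed the threshold (limma adjusted p = 0.0779, 0.0998 and 0.0854). Over 6 arrays many genes can share an order, and the distance is a description.

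Stat6 and Stat3 had the next differences among the STAT genes. STAT6 carries signals of interleukin 4 and interleukin 13, and STAT3 those of interleukin 6, interleukin 10 and related cytokines. Stat6 read 10.83, 10.73 and 10.64 in the controls and 10.88, 10.86 and 10.85 in Cre-ERT2 cells. Its Cre-ERT2 arrays were nearly level, and the lowest exceeded the highest control by only 0.03. The difference of 0.13 ± 0.06 (SE) was 1.1-fold, with a 95% interval of 0.996 to 1.21-fold (limma adjusted p = 0.296), and it was 0.08 with the mast cell covariate. Stat3 read 11.01, 10.95 and 10.86 in control and 11.04, 11.04 and 11 in Cre-ERT2 cells. The groups overlapped, since control 1 lay just above the lowest Cre-ERT2 array. The difference was 0.09 ± 0.06 (SE) or 1.06-fold, with a 95% interval of 0.972 to 1.16-fold (limma adjusted p = 0.472).

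Stat5a and Stat5b, which encode the closely related STAT5 proteins that act downstream of the interleukin 7 receptor and of BCR-ABL1, showed no difference beyond the spread of the arrays. Stat5a read 10.57, 10.45 and 10.30 in control and 10.57, 10.46 and 10.53 in Cre-ERT2 cells. Control 1 was as high as the highest Cre-ERT2 array, and the range of the controls (0.27) was wider than the difference of 0.08 ± 0.08 (SE, limma adjusted p = 0.639). Without control 3 it was 0.01, and without control 1 it was 0.15. Stat5b read 10.66, 10.46 and 10.44 in control and 10.68, 10.51 and 10.52 in Cre-ERT2 cells. Here the array numbered 1 was the highest of each group, and the difference was 0.05 ± 0.08 (SE, limma adjusted p = 0.802). The 95% intervals, 0.939 to 1.19-fold for Stat5a and 0.917 to 1.17-fold for Stat5b, bound the change that these arrays leave possible. With that covariate the differences were -0.04 and -0.14. Stat5b, Stat5a and Stat3 follow one another on chromosome 11 in the RefSeq gene table, and their differences, 0.05, 0.08 and 0.09, all missed the threshold.

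Among the kinases, Jak1 had separate groups. JAK1 works with every common gamma chain, interleukin 6 and interferon receptor. Its probe read 12.44, 12.42 and 12.38 in control and 12.56, 12.47 and 12.51 in Cre-ERT2 cells. The lowest Cre-ERT2 array exceeded the highest control by 0.03, and the difference of 0.10 ± 0.05 (SE) or 1.07-fold, with a 95% interval of 0.989 to 1.17-fold, did not pass (limma adjusted p = 0.351). With the mast cell covariate it was 0.03. Jak2, the kinase of the receptors for interleukin 3, erythropoietin and thrombopoietin, had the least difference. It read 10.30, 10.27 and 10.32 in control and 10.31, 10.28 and 10.26 in Cre-ERT2 cells. The 6 values overlapped fully and the difference was -0.01 ± 0.05 (SE), with a 95% interval of 0.919 to 1.08-fold (limma adjusted p = 0.957). Tyk2, the kinase paired with JAK1 or JAK2 on interferon and interleukin 12 receptors, read 9.45, 9.37 and 9.25 in control and 9.36, 9.46 and 9.37 in Cre-ERT2 cells. The controls spanned 0.2, wider than the difference of the means, which came to 0.04 ± 0.07 (SE), with a 95% interval of 0.925 to 1.14-fold (limma adjusted p = 0.821).

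Within the groups, control 1 was the highest control for 7 of the 8 members (all but Jak2), as it was for 66.6% of all genes, and Cre-ERT2 1 was the highest Cre-ERT2 array for 7 of 8 (all but Tyk2) and for 33.4% of all genes. The difference between groups exceeded the range of the controls for 2 of 8, Stat2 and Jak1, and for 25% of all genes. Both arrays numbered 1 also had the highest mast cell marker means of their groups, and the part of those cells in the members' values was not tested.

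**Figure D3:**
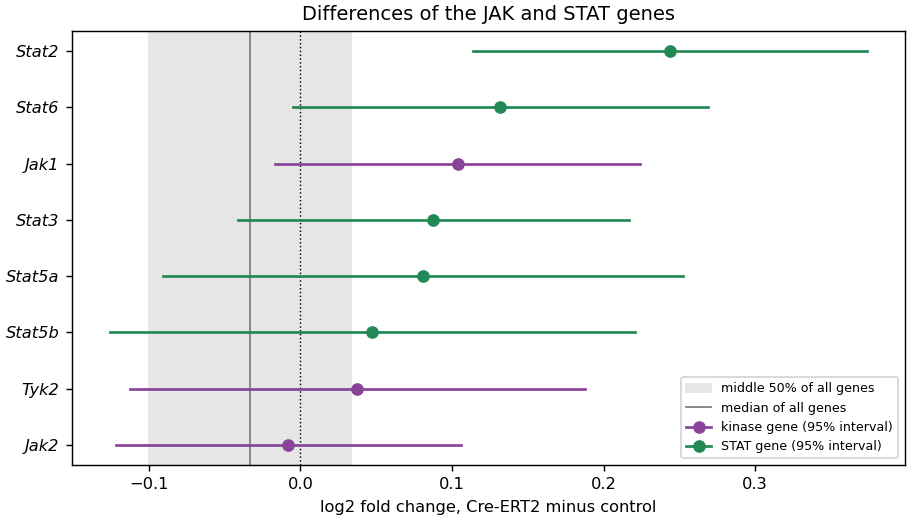
Log2 fold change of the 8 measured JAK and STAT genes, Cre-ERT2 minus control, with 95% intervals. The grey band holds the middle 50% of all 19938 genes and the grey line their median of -0.03. Of the members, the interval of Stat2 alone lies wholly above 0.

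Of 32 measured receptor chains that signal through JAKs, 5 rose and 0 fell (limma, adjusted p under 0.05), where 0.797% of all genes rose and 1.12% fell. The median difference of the list was 0.08, and 25 of 32 were higher. The 5 included Csf2rb2 and Csf2rb, which encode mouse beta chains of the interleukin 3 receptor, which uses JAK2. The others were Il2ra, Il21r and Il4ra, chains of receptors that use JAK1 with JAK3.

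Csf2rb2 had the largest change of the list. It read 10.43, 10.19 and 10.14 in control and 11.47, 10.82 and 11.18 in Cre-ERT2 cells. The groups were apart by 0.39, and the rise was 1.87-fold (0.91 ± 0.15 SE, limma adjusted p = 0.0292). Csf2rb read 12.12, 11.90 and 11.89 in control and 12.52, 12.30 and 12.41 in Cre-ERT2 cells, a rise of 1.36-fold (0.44 ± 0.08 SE, limma adjusted p = 0.0391). The beta chain genes are adjacent copies with near-identical sequence, so their probes may share signal. In both genes Cre-ERT2 1 was the highest array and Cre-ERT2 2 the lowest of its group, the order of the mast cell marker means in that group. Control 1 was the highest control in both genes and in the marker mean. Controls 2 and 3 lay close together in both genes (10.19 and 10.14 in Csf2rb2, 11.90 and 11.89 in Csf2rb). Their marker means were 7.35 and 7.53. The part of mast cells in the values of these genes was not tested.

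Il2ra, the alpha chain of the interleukin 2 receptor, read 10.94, 10.63 and 10.77 in control and 11.64, 11.30 and 11.51 in Cre-ERT2 cells. It rose 1.62-fold (0.70 ± 0.10 SE, limma adjusted p = 0.019), with 0.36 between the groups. Il21r, the interleukin 21 receptor gene, read 8.50, 8.48 and 8.41 in control and 9.12, 8.76 and 8.99 in Cre-ERT2 cells, a rise of 1.41-fold (0.49 ± 0.09 SE, limma adjusted p = 0.0369). Il4ra, its neighbour on chromosome 7 and the chain through which interleukin 4 engages STAT6, read 9.45, 9.28 and 9.34 in control and 9.91, 9.64 and 9.76 in Cre-ERT2 cells. Its rise was 1.33-fold (0.41 ± 0.08 SE, limma adjusted p = 0.0414). These 3 genes had their highest values on Cre-ERT2 1 as well. In Il2ra and Il4ra the order of all arrays was that of the mast cell marker means. Il21r had that order too, except that control 2 lay above control 3. The part of mast cells in these values was not tested.

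Receptors of the pre-B cell and interferon systems did not pass. Il7r, the receptor on which normal pre-B cells depend, read 12.47, 12.56 and 12.57 in control and 11.95, 12.45 and 12.35 in Cre-ERT2 cells. It was lower on every Cre-ERT2 array, but Cre-ERT2 1 stood well below the other two, and the difference of -0.28 ± 0.12 (SE) did not pass (limma adjusted p = 0.245). With the mast cell covariate it was 0.11. Crlf2, its partner gene in the receptor of thymic stromal lymphopoietin, differed by 0.02 ± 0.06 (SE). The interferon receptor chain gene Ifnar1 differed by 0.22 ± 0.06 (SE, limma adjusted p = 0.08), with groups 0.13 apart, while Ifnar2 and Ifngr1 were each at 0.06 and Il6st, the shared chain of the interleukin 6 family, was at 0.13. None of these 4 passed on the deposited values, and Il2rg was not analysed here. With the mast cell covariate Ifnar1 was at 0.29, Ifnar2 at 0.13, Ifngr1 at 0.03 and Il6st at 0.11, and none passed.

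The 5 receptor genes that rose kept their direction without any 1 array, but most calls were lost. In those 6 fits the log2 difference ran from 0.75 to 1.08 for Csf2rb2, 0.62 to 0.79 for Il2ra, 0.41 to 0.59 for Il21r, 0.38 to 0.51 for Csf2rb and 0.34 to 0.48 for Il4ra. Leaving out control 2, control 3, Cre-ERT2 1 or Cre-ERT2 3 left 0 of the 32 past the threshold (10 or 11 at an unadjusted p under 0.05), leaving out control 1 left 2, and leaving out Cre-ERT2 2 left 5 (limma). In the fits that left 0, 2654 to 3225 of all 19938 genes had an unadjusted p under 0.05. Over all genes the number that rose was lower as well, 31 to 62 against 159, in the 4 fits that left no receptor gene. With the mast cell covariate 0 passed (limma, 6 at an unadjusted p under 0.05, as were 2147 of all 19938 genes). The differences were then 0.37 for Csf2rb2, 0.21 for Csf2rb, 0.36 for Il2ra, 0.24 for Il21r and 0.17 for Il4ra. Since the covariate itself separates the groups, the lost calls cannot be assigned to mast cells or to the group.

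Of 20 inhibitors of JAK-STAT signalling, only Socs3 rose and 0 fell (5%, against 1.92% of all genes). The median difference was 0.01, and 10 of 20 were higher, as were 36.9% of all genes. SOCS3 binds JAKs and the interleukin 6 receptor chain, and its gene is a known target of STAT3 and STAT5. Socs3 read 10.01, 9.56 and 9.64 in control and 10.34, 10.26 and 10.34 in Cre-ERT2 cells. Control 1 was the nearest to the Cre-ERT2 arrays, 0.25 below them. The rise was 1.49-fold (0.58 ± 0.11 SE, limma adjusted p = 0.0387). Without any 1 array the difference stayed between 0.49 and 0.71, and it passed without control 1 alone. It did not pass with the mast cell covariate (0.37 ± 0.16 SE, limma adjusted p = 0.447), and averaging all its probes gave 0.34 (limma adjusted p = 0.0456).

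The feedback inhibitor genes Cish and Socs1 differed by as much but just missed the threshold in the main fit, which pairs no arrays. With the replicate number as a block both passed (limma adjusted p = 0.0037 and 0.00165). Cish, a classical STAT5 target, read 11.43, 10.98 and 11 in control and 11.84, 11.59 and 11.72 in Cre-ERT2 cells (0.58 ± 0.12 SE, limma adjusted p = 0.0508). Socs1, whose product blocks the kinase domain of JAKs, read 10.33, 9.93 and 9.92 in control and 10.87, 10.45 and 10.62 in Cre-ERT2 cells (0.59 ± 0.13 SE, limma adjusted p = 0.06). In both, control 1 was the highest control and Cre-ERT2 1 the highest Cre-ERT2 array. Cbl, a ubiquitin ligase that limits kinase signalling, differed by 0.30 ± 0.07 (SE, limma adjusted p = 0.0553), and each of these 3 genes passed in 7 or 8 of the 17 alternatives. With the mast cell covariate Cish was at 0.25, Socs1 at 0.16 and Cbl at 0.19, and none passed (limma adjusted p = 0.596, 0.722 and 0.561). Socs2, a further STAT5 target, read 13.25 to 13.33 in control and 13.33 to 13.38 in Cre-ERT2 cells and differed by 0.05 ± 0.05 (SE, limma adjusted p = 0.657).

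**Figure D4:**
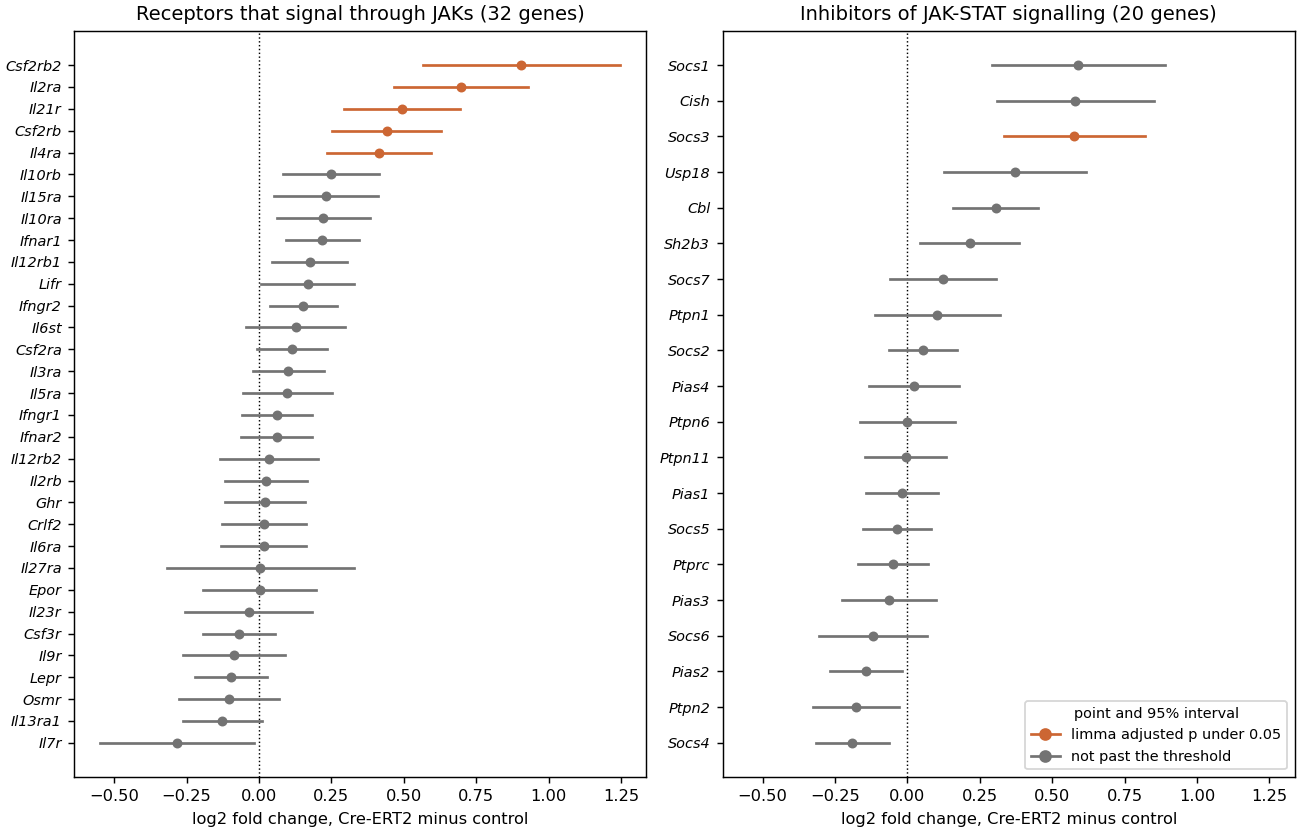
Log2 fold changes with 95% intervals for 32 receptor genes and 20 inhibitor genes of the JAK-STAT pathway, Cre-ERT2 minus control. Orange marks the 5 receptor genes and Socs3, which passed an adjusted p of 0.05, while Cish and Socs1, with differences of 0.58 and 0.59, did not pass.

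Other cofactors and regulators of the STAT proteins did not pass on the deposited values. Of 14 such genes, 0 passed (limma, against 1.92% of all genes), with a median of -0.02. At an unadjusted p under 0.05 there were 5 (35.7%, against 18.1% of all genes). Stap1, an adaptor that can bind STAT5, differed by -0.34 ± 0.07 (SE, limma adjusted p = 0.0569). The acetyltransferase genes Ep300 and Crebbp were at 0.28 and 0.21, the coactivator gene Ncoa1 at 0.19, and Irf9, the partner of STAT2, at 0.13 ± 0.05 (SE, limma adjusted p = 0.247). Ep300 passed in 7 of the 17 alternatives, Stap1 in 5, Crebbp in 3, and Ncoa1 and Irf9 in 0. With the mast cell covariate none of them passed.

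Known STAT target genes went in both directions. Of 19 measured STAT5 targets, 3 rose and 1 fell, with a median of 0.13, where 0.797% of all genes rose and 1.12% fell. The 3 were Il2ra and Socs3, given above, and Bcl2, which encodes an inhibitor of apoptosis. Bcl2 read 11.84, 11.71 and 11.78 in control and 12.27, 12.09 and 12.13 in Cre-ERT2 cells, a rise of 1.31-fold (0.39 ± 0.07 SE, limma adjusted p = 0.0317). Gfi1, a transcriptional repressor gene, fell to 0.741-fold, from 9.11, 8.84 and 8.88 in control to 8.57, 8.49 and 8.48 in Cre-ERT2 cells (limma adjusted p = 0.0369). Without any 1 array Bcl2 stayed between 0.34 and 0.42 and passed in 2 of 6 fits, and Gfi1 stayed between -0.48 and -0.35 and passed in 1 of 6. With the mast cell covariate Bcl2 was at 0.22 and Gfi1, from -0.43, at -0.59, and neither passed (limma adjusted p = 0.434 and 0.0779). The cyclin gene Ccnd2 (0.25), the kinase gene Pim1 (0.15) and the survival gene Bcl2l1 (-0.15) did not pass on the deposited values. Ccnd2 passed in 5 of the 17 alternatives, Pim1 in 2 and Bcl2l1 in 0. With the mast cell covariate they were at 0.34, 0.14 and 0.05.

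Of 16 STAT3 targets, 4 rose and 0 fell, with a median of 0.12, against the same shares of 0.797% and 1.12% over all genes. Besides Socs3 and Il4ra these were Fos and Junb, subunits of the AP-1 transcription factor that are also induced by ERK. Fos read 7.28, 7.31 and 7.29 in control and 7.77, 7.72 and 7.83 in Cre-ERT2 cells, a rise of 1.4-fold (limma adjusted p = 0.005) that held when any 1 array was left out. Junb read 8.80, 8.74 and 8.59 in control and 9.15, 9.03 and 9.25 in Cre-ERT2 cells and rose 1.35-fold (limma adjusted p = 0.0369). In the fits without 1 array its log2 difference stayed between 0.37 and 0.49 and passed in 1 of 6. With the mast cell covariate Fos, from 0.48, was at 0.46 and Junb, from 0.43, at 0.34. Neither passed there (limma adjusted p = 0.0846 and 0.382). Of 14 STAT6 targets, Il4ra alone passed (7.14%, against 1.92% of all genes), and the macrophage receptor gene Mrc1 was at -0.17. Cish and Socs1 belong to that list too, so the lists are not independent of each other.

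Interferon-stimulated genes, the targets of the complex of STAT2 and IRF9, held 1 gene that passed the test. Of 21 measured, 0 rose and 1 fell (limma; 4.76%, against 1.92% of all genes). The median was 0.05, and 16 of 21 were higher, as were 36.9% of all genes. The gene that fell was Ifit2, an antiviral effector, which read 9.79, 9.62 and 9.64 in control and 9.38, 9.34 and 9.27 in Cre-ERT2 cells (0.784-fold, limma adjusted p = 0.0374). Its difference of -0.35 stayed between -0.38 and -0.30 when any 1 array was left out, short of the threshold in each of those fits. With the mast cell covariate it was -0.44 (limma adjusted p = 0.154). The RNA sensor gene Ddx58 (0.20), the synthetase gene Oas1a (-0.23) and Usp18 (0.37), which restrains the interferon receptor, had the next lowest p-values and did not pass (limma adjusted p = 0.0841, 0.092 and 0.111).

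Over the 120 measured pathway genes outside the family, 9 rose and 2 fell, or 9.17% against 1.92% of all genes. Without single arrays the numbers were 10 and 1 (control 1), 1 and 0 (control 2, control 3, Cre-ERT2 1 or Cre-ERT2 3) and 8 and 0 (Cre-ERT2 2). The mast cell covariate left 0 and 0 (limma, 17 at an unadjusted p under 0.05, as were 2147 of all 19938 genes). The lists were chosen with earlier results of these data known, so their counts are descriptions.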

How the data were processed

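RNA was read on Affymetrix arrays, as the labels' protocols state. The deposited values are log2 expression values of 35556 probes; the submitters' processing notes list RMA and Partek 6.5 without role or order, and the background correction is not given in the sources used here. They were used without further scaling. Probes were named through the platform annotation (21789 name 1 gene, 1621 several, 12146 none here), and 21698 matched the GRCm38.p6 gene table by identifier, with 0 symbols changed. The brightest single-gene probe represented each of 19938 genes. Groups and replicate numbers came from the sample titles. The groups were tested by limma 3.58.1 (lmFit, then eBayes; R 4.3.3), p-values were adjusted after Benjamini and Hochberg across the 19938 genes, and calls needed an adjusted p under 0.05. The procedure was tested on simulated data. The number of arrays limits the precision (median SE 0.0656). All members, up to 4 genes with the lowest p per list, every list gene past the threshold and the usual partners of the members were named. Members and lists were chosen with earlier results of these data known; the cell type marker genes named were chosen after their values were seen. Alternatives changed the dim-gene filter (40th percentile), probe rule, scaling, variance model, array weights, replicate block, mast cell covariate, threshold (0.1) and arrays used. Jak3 was not analysed here.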

Additional observations from a re-analysis of the deposited data

How the results depend on the processing

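With 3 arrays a group, changes as small as those of most JAK and STAT genes are near the median SE of 0.0656. The counts over all genes and lists moved with the variance model and the scaling, and the cause of each shift was not tested. Over all genes the numbers higher and lower, 159 and 223 on the deposited values, were 364 and 791 with dim genes left out, 314 and 692 on median-centred arrays, 369 and 334 with quantile normalization repeated, 366 and 821 with an intensity trend, 763 and 1082 with array weights, 61 and 40 with the mast cell covariate, 401 and 833 at an adjusted p under 0.1, and 43 lower without both arrays numbered 1. Without variance moderation 0 genes passed in either direction (3194 at an unadjusted p under 0.05, limma's fit). Leaving out 1 array gave 31 to 188 higher and 18 to 111 lower. In the JAK and STAT family 1 gene, Stat2, passed with dim genes left out, centred arrays, a repeated quantile normalization, an intensity trend, array weights or the threshold of 0.1, and 0 passed under every other alternative, including each of the 6 fits without 1 array. For the other pathway genes the numbers higher and lower, 9 and 2, were 17 and 5 with dim genes left out, 15 and 4 with centred arrays, 19 higher after quantile normalization, 20 and 4 with an intensity trend, 27 and 6 with array weights, 17 and 5 at 0.1, 0 and 0 without moderation or with the mast cell covariate, 1 lower without both arrays numbered 1, and 1 to 10 higher and 0 to 1 lower without 1 array. Receptor genes, 5 of which rose, numbered 8 after quantile normalization, 11 with array weights, 0 without moderation or with the mast cell covariate, 3 without both arrays numbered 1, and 0 to 5 without 1 array. Spry1 and Spry2 missed the threshold without moderation (limma fit, adjusted p = 0.117 and 0.106, at -0.84 and -1.06), and Spry1 with the mast cell covariate (-0.75, adjusted p = 0.0694).

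Some values that missed the threshold on the deposited values changed sign, and missed it there too. After quantile normalization Jak2 was at 0.033. Without 1 array the values ran from -0.0214 to 0.0039 for Jak2 (above 0 without control 3 or Cre-ERT2 3), from -0.0153 to 0.0853 for Tyk2 (below 0 without control 3), from -0.0072 to 0.115 for Stat5b (below 0 without Cre-ERT2 1) and from -0.0297 to 0.0574 for Crlf2 (below 0 without control 3 or Cre-ERT2 1). With the mast cell covariate Stat5a was at -0.0437, Stat5b at -0.1415, Ncoa1 at -0.0088 (from 0.19), Il7r at 0.11 (from -0.28), Crlf2 at -0.0918 and Bcl2l1 at 0.0467 (from -0.15).

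The sample titles number the replicates but name no pairs, and the main fit did not pair arrays that share a number. Their deviations from the group means correlated at 0.27, 0.34 and 0.03, against -0.33 to 0.04 for arrays of unlike number. Of 6 arrays 4 correlated best with their own number, so a pairing cannot be set aside. With the replicate number as a block, 296 genes rose and 15 of the other pathway genes did, against 159 and 9, and 0 JAK and STAT genes passed. Among those 15 were Cish, Socs1 and Cbl (limma adjusted p = 0.0037, 0.00165 and 0.0405).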
